A study of Mus musculus with 4 samples.

Results

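Immediate early genes are genes whose transcription starts within minutes of a stimulus, without new protein synthesis. The 10 described here were Fos, Fosb, Jun, Junb, Jund, Egr1, Ier2, Dusp1, Atf3 and Nr4a1. They were taken by symbol from the deposited tables, out of 12417 genes with a row in at least 1 of 4 RNA-seq libraries. All 10 had a row in at least 1 library and 8 had a row in every library. Fosb had none in the KO-CLP library, and Atf3 had a row in the KO-HSC library only.

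The libraries were named WT-HSC, KO-HSC, WT-CLP and KO-CLP and came from bone marrow of C57BL/6 mice, wildtype or with a germline GRK6 knockout. GRK6 belongs to the kinases that dampen signalling of receptors such as those for chemokines. HSC were sorted as Lin-c-kit+sca-1+, and for CLP the gate Il-7Ra+ was added, so that the CLP gate as labelled lies within the HSC gate. In the study's flow cytometry the LSK gate asked for high cKit, and the CLP gate for cKit+ without FcγRII/III. By those gates CLP need not lie within the LSK gate. No treatment was given. By the study's methods mice were 8 to 12 weeks old unless stated otherwise, and WT mice were littermates of the knockouts. Each library pooled the cDNA of 13 to 15 cells from 3 to 4 mice. Each cell was picked and lysed singly, and its cDNA was amplified by 20 and then 10 cycles of PCR. There was 1 library a group, so that no comparison has a replicate check and no test was made. A difference is given as the log2 ratio of FPKM + 1 (FPKM, fragments per length of transcript and per library size), which understates changes of low genes. It was called past 2-fold where its absolute value was at least 1. In these pools fewer cells with a transcript and less of it per cell cannot be told apart.

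Products of these genes act early after growth factors, cytokines, calcium or stress have activated MAP kinases. FOS and JUN proteins pair through leucine zippers to form AP-1, ATF3 pairs with the same partners, and EGR1 and NR4A1 bind DNA as a zinc finger protein and an orphan nuclear receptor. DUSP1 is a phosphatase that switches MAP kinases off again. The genes are known to respond to signals in blood progenitors, and also to warming, dissociation and sorting of cells. The time from killing of the mice to lysis and the order of sorting are not given in the sources used here, and the part of handling in these values was not tested.

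Some facts of the libraries bear on all results. The lowest FPKM values fell on steps of whole fragments, from which the values were scaled to about 2810000 to 4410000 fragments a library. One fragment in a transcript of 2 kb then corresponded to 0.113 to 0.178 FPKM. Of 7 CLP markers, 7 had a row in WT-CLP, 6 in KO-CLP, 4 in KO-HSC and 2 in WT-HSC. Il7r was 120 FPKM in WT-CLP and 75.1 in KO-CLP, against 1.08 in KO-HSC and no row in WT-HSC. Ly6d, another marker of lymphoid progenitors, was 1438 and 1051 in the CLP libraries and had no row in the HSC libraries. Rag1 and Rag2, the recombinase genes of lymphocyte precursors, were lower in KO-CLP than in WT-CLP, as were Il7r, Ly6d and Dntt. Ebf1 and Flt3 of the same list were higher in KO-CLP, at 82.0 against 25.0 FPKM and 219 against 124. Dntt had 931 FPKM in WT-CLP and 562 in KO-CLP, and also 114 in WT-HSC and 92.3 in KO-HSC. Rag1 had 23.0 FPKM in WT-CLP, 2.47 in KO-CLP and no row in HSC, and Rag2 had 94.5 in WT-CLP, 0.307 in KO-HSC and no row in KO-CLP or WT-HSC. Of 12 HSC markers 10 or 11 had a row in each library, with sums of 411 FPKM in WT-HSC, 517 in KO-HSC, 469 in WT-CLP and 730 in KO-CLP, so that these markers did not separate HSC from CLP. Ly6a, the gene of Sca-1 used in the sort, had no row of its own in any library. Of 7 erythroid markers, 5 had a row in each KO library and 4 in each WT library. Their summed level was 17466 FPKM in KO-CLP, against 13.6 in WT-HSC, 134 in KO-HSC and 17.8 in WT-CLP. Hba-a2 alone made up 17219.5 FPKM of the KO-CLP sum, and Hba-a1 and Hbb-b1 had no row of their own anywhere. Rows that join several genes were left out with their genes, so a marker in such a row counts here as without one. Of 5 B cell markers, 3 had a row in each CLP library, 2 in KO-HSC and 1 in WT-HSC. They summed to 414 FPKM in KO-CLP against 35.0 to 71.7 elsewhere, while Pax5 and Ms4a1 had no row of their own. Granulocyte and monocyte markers were high throughout, from 7762 FPKM in KO-CLP to 17759 in WT-HSC, with 8 or 9 of 11 listed in each library. Of 3 T cell markers, all had a row in the HSC libraries and 1 in the CLP libraries, with sums of at most 17.7 FPKM. Megakaryocyte markers summed to 122 FPKM in WT-HSC, 6.41 in KO-HSC, 13.2 in WT-CLP and 84.4 in KO-CLP, with 2 or 3 of 4 listed. Grk6 itself was 42.7 FPKM in WT-HSC, 89.4 in KO-HSC, 26.9 in WT-CLP and 57.6 in KO-CLP. It was thus higher in both libraries labelled KO. The knockout removes only some exons and the tables give 1 value a gene, so these values do not check the labels, and KO and WT below mean the libraries labelled so.

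The promoters of 4 members are shown, since 3 of these genes (Fos, Junb and Nr4a1) were higher in both CLP libraries than in both HSC libraries, and Jun was not. The windows are RefSeq sequences of GRCm38.p6, another build than that of the deposited tables. They run 5′ to 3′ along the gene from 250 bases before the annotated start to 50 bases after it. RefSeq windows were matched for 8 of the 10 members, all but Egr1 and Ier2. Capitals mark the core of the cAMP response element (TGACG on either strand), the letters TGACNTCA and the TATA box (TATAAA).
Fos (chr12:85473640-85473939, plus strand): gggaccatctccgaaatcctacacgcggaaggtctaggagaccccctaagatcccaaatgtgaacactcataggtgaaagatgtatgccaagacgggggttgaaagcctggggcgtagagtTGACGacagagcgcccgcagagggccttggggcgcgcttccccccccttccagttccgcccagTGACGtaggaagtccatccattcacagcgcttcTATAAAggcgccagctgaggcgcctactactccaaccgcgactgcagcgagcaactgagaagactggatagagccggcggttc
Junb (chr8:84978699-84978998, minus strand): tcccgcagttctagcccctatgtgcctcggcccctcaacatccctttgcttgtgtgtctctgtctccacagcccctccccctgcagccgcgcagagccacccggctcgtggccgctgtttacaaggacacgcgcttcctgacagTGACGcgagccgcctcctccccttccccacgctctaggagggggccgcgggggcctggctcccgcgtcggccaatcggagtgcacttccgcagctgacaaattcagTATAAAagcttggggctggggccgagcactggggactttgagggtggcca
Nr4a1 (chr15:101266596-101266895, plus strand): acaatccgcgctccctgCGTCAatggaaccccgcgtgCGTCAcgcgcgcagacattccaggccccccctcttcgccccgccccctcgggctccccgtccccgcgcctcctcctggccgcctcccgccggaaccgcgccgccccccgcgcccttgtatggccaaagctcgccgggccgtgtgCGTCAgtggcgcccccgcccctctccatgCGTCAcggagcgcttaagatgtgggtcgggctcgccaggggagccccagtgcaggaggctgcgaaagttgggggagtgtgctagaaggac
Jun (chr4:95052173-95052472, minus strand): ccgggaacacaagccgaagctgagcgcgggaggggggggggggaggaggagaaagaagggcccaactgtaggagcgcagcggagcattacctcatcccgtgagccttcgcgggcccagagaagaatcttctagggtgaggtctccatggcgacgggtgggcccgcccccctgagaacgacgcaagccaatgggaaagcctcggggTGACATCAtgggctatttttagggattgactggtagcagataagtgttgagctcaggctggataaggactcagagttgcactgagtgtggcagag

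Fos held TGACG at positions -129 and -66 from its start and TATAAA at -33. Junb held TGACG at -106 and TATAAA at position 1. On mm9 the 5′ end of Junb differs by source, at 87502647 in the deposited locus and 87502617 in the transcript used below. Its positions thus depend on the annotated start, and may not compare with those of Fos. Nr4a1 held the core on the opposite strand, as CGTCA, at 4 positions from -233 to -40. Jun had no TGACG in this window and held TGACATCA at -45. The core was found in 6 of the 8 member windows (Atf3, Dusp1, Fos, Fosb, Junb and Nr4a1). It was found in 20.8% of all 32851 windows of the same length outside chromosome 18. Atf3, Dusp1 and Fosb held the core without having both CLP libraries above both HSC libraries. The full element TGACGTCA, which overlaps the core on both strands, was found in Dusp1 only, at -143, and in 1.79% of all windows. TGACNTCA, of which TGACGTCA is 1 form and which was added after the Jun window had been read, was found in Dusp1 and Jun and in 8.83% of all windows. TATAAA was in 2 of 8 member windows and 13.6% of all. The AP-1 site TGANTCA was in 0 of 8 and 7.81% of all, and the CArG box bound by serum response factor in 0 of 8 and 1.63%. Sequence more than 250 bases before the start, and the promoters of Egr1 and Ier2, were not searched. The 0 of 8 thus does not show that the members lack these sites. These are matches of letters and do not show binding.

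Fos, the gene of the founding AP-1 subunit (Entrez 14281), lies on chromosome 12 of mm9 from 86814840 to 86818223 on the plus strand, with 4 exons. Its level was 46.2 FPKM in WT-HSC, 73.6 in KO-HSC, 273 in WT-CLP and 165 in KO-CLP. The CLP libraries were both above the HSC libraries, by a log2 ratio of 2.54 between the WT libraries and 1.16 between the KO libraries. In WT-CLP its level exceeded that of 97.1% of the genes with a row. KO and WT differed by less than 2-fold, with log2 ratios of 0.66 in HSC and -0.72 in CLP. From the steps, Fos had an estimated 287 fragments in WT-HSC, 591 in KO-HSC, 2536 in WT-CLP and 979 in KO-CLP.

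Fosb encodes a FOS relative (Entrez 14282, chromosome 7, 19888070 to 19895394, minus strand, 4 exons). It had 14.5 FPKM in WT-CLP, 0.183 in WT-HSC and 0.275 in KO-HSC, and no row in KO-CLP. The HSC values stand for about 2 and 4 fragments and the WT-CLP value for about 239. Among the libraries with a row, Fosb was thus above a few fragments in WT-CLP alone. No other row covered its locus in KO-CLP.

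**Figure D1:**
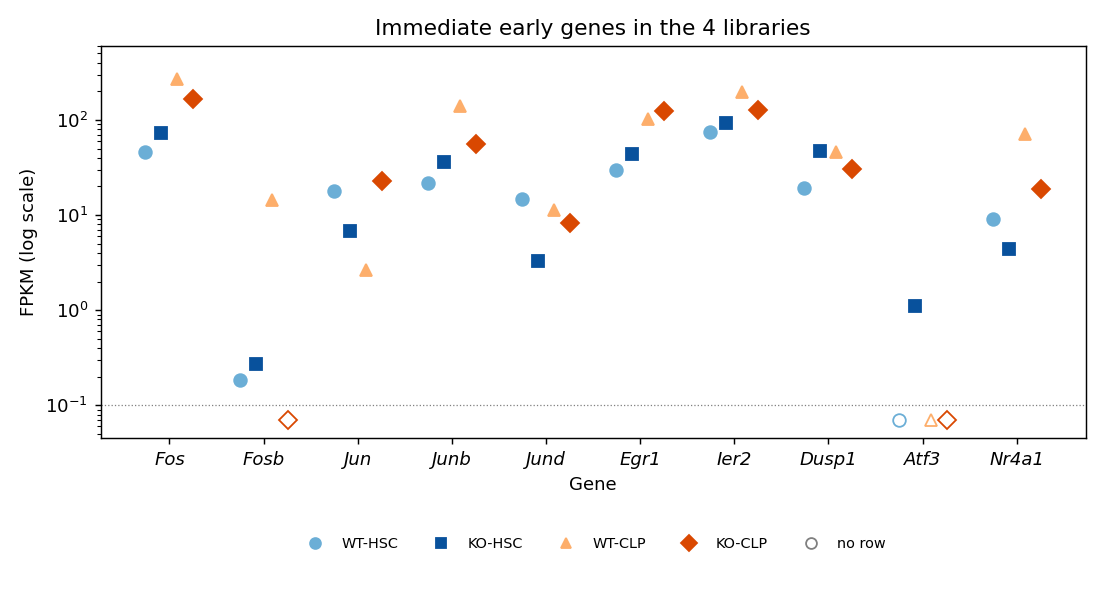
FPKM of each immediate early gene (horizontal axis) on a log scale, 1 point for each of the 4 libraries; open points under the dotted line stand for genes without a row and have no value. Fos, Junb, Egr1, Ier2 and Nr4a1 have both CLP points above both HSC points, while Jun has its lowest point in WT-CLP (2.65 FPKM) and its highest in KO-CLP (22.9).

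The Jun family moved less uniformly. Junb, whose protein is a JUN relative with weaker activation of many AP-1 targets (Entrez 16477, chromosome 8, 87500811 to 87502617, minus strand, 1 exon), had 22.0 FPKM in WT-HSC, 36.6 in KO-HSC, 141 in WT-CLP and 55.9 in KO-CLP. Its order over the libraries was the same as that of Fos. The log2 ratio of CLP over HSC was 2.63 in WT and 0.60 in KO, and that of KO over WT was 0.71 in HSC and -1.32 in CLP.

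Jun, the gene of c-JUN (Entrez 16476, chromosome 4, 94715725 to 94718913, minus strand, 1 exon), had 17.8 FPKM in WT-HSC, 6.81 in KO-HSC, 2.65 in WT-CLP and 22.9 in KO-CLP. KO was lower than WT in HSC and higher in CLP, with log2 ratios of -1.27 and 2.71. The lowest of these values stands for about 37 fragments. CLP was below HSC in WT (log2 ratio -2.36) and above it in KO (1.61).

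Jund, whose transcript is known as the more constant of the 3 (Entrez 16478, chromosome 8, 73221638 to 73224515, plus strand, 1 exon), had 14.8 FPKM in WT-HSC, 3.29 in KO-HSC, 11.4 in WT-CLP and 8.20 in KO-CLP. KO-HSC stood apart from the other 3 libraries, with a log2 ratio of -1.88 against WT-HSC, and about 36 fragments. In CLP the log2 ratio of KO over WT was -0.43. Both Jun and Jund overlap another annotated gene of mm9 (BC042782 and Gm11175), and so does Egr1 (Gm17507). Strand was not stated for the counting, so fragments of these partners cannot be told apart.

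Within the summed FPKM of the 3 Jun genes, Junb made up 40.2% in WT-HSC, 78.4% in KO-HSC, 90.9% in WT-CLP and 64.3% in KO-CLP. Jun made up 32.6%, 14.6%, 1.71% and 26.3% in the same order, and Jund 27.1%, 7.06%, 7.39% and 9.42%. Junb thus exceeded Jun in all 4 libraries, by a ratio of FPKM between 1.23 in WT-HSC and 53.0 in WT-CLP. The ratio of Fos to the summed Jun family was 0.846 in WT-HSC and 1.58 to 1.90 in the other 3 libraries. The WT-CLP library thus combined the highest Fos and Junb with the lowest Jun.

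**Figure D2:**
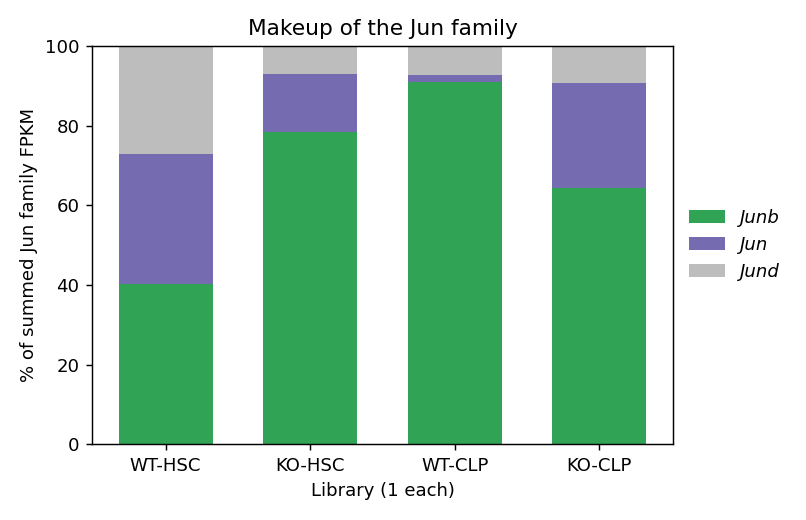
Share of Junb, Jun and Jund in the summed FPKM of the 3 genes (vertical axis, percent) in each of the 4 libraries, with no error since each bar is 1 library. Junb takes the largest share in every bar, from 40.2% in WT-HSC to 90.9% in WT-CLP.

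Egr1 encodes a zinc finger factor known to hold stem cells in the marrow niche (Entrez 13653, chromosome 18, 35020861 to 35024638, plus strand, 2 exons). Its level was 29.7 FPKM in WT-HSC, 43.9 in KO-HSC, 102 in WT-CLP and 125 in KO-CLP. It was the only member with KO above WT in both populations, though by less than 2-fold (log2 ratios 0.55 and 0.29). CLP exceeded HSC by log2 ratios of 1.75 in WT and 1.49 in KO.

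Nr4a1, the gene of the nuclear receptor NUR77 (Entrez 15370, chromosome 15, 101097277 to 101105223, plus strand, 7 exons), had 9.16 FPKM in WT-HSC, 4.41 in KO-HSC, 71.6 in WT-CLP and 18.7 in KO-CLP. KO was below WT in both populations, with log2 ratios of -0.91 in HSC, short of 2-fold, and -1.88 in CLP. Its highest value was 16.2 times its lowest, the widest range among the 8 members with a row in every library. CLP exceeded HSC by log2 ratios of 2.84 in WT and 1.86 in KO.

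Ier2, a small nuclear protein gene of the early response (Entrez 15936, chromosome 8, 87185230 to 87186751, minus strand, 1 exon), had the highest level of the members in both HSC libraries. It had 74.9 FPKM in WT-HSC, 92.6 in KO-HSC, 195 in WT-CLP and 127 in KO-CLP. Among these only WT-CLP over WT-HSC passed 2-fold, with a log2 ratio of 1.37. KO over WT gave 0.30 in HSC and -0.61 in CLP.

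Dusp1 (Entrez 19252, chromosome 17, 26642535 to 26645464, minus strand, 4 exons) had 19.5 FPKM in WT-HSC, 47.3 in KO-HSC, 46.0 in WT-CLP and 30.5 in KO-CLP. WT-HSC was the low library, with log2 ratios of 1.24 for KO-HSC and 1.20 for WT-CLP against it. In CLP the log2 ratio of KO over WT was -0.58. Both larger ratios share the WT-HSC library.

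Atf3, a stress-induced factor that pairs with JUN proteins (Entrez 11910, chromosome 1, 192994175 to 193007219, minus strand, 4 exons), had 1.10 FPKM in KO-HSC, about 8 fragments, and was listed in no other library. No other row covered its locus there. Atf3 was thus near the limit of detection in KO-HSC. Why it had no row in the other libraries was not tested.

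The members were next set against all genes. Between the WT libraries, 7 of 9 members compared were at least 2-fold higher in CLP, where 21.8% of all genes were, and 1 (Jun) was at least 2-fold lower, where 24.7% were. The 7 were Fos, Fosb, Junb, Egr1, Ier2, Dusp1 and Nr4a1. The median log2 ratio was 1.75 over the members and -0.08 over all genes. Between the KO libraries, 5 of 10 (Fos, Jun, Jund, Egr1 and Nr4a1) were at least 2-fold higher in CLP, against 22.3% of all genes, and Atf3 alone was lower, against 23.4%. The call for Atf3 rests on its missing row in KO-CLP. The median was 0.85 against -0.08. The summed FPKM of the 10 genes was 234 in WT-HSC, 310 in KO-HSC, 857 in WT-CLP and 554 in KO-CLP.

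Over both genotypes, 5 of 10 members (Fos, Junb, Egr1, Ier2 and Nr4a1) had both CLP libraries above both HSC libraries, as had 14.2% of all genes. The opposite order was seen in 0 of 10 members and 17.6% of all genes. Fos and Egr1 kept a gap of at least 2-fold between the lower CLP and the higher HSC library (log2 1.16 and 1.20), as did 3.37% of all genes, and 0 of 10 members did so in the other direction, against 3.78%. Nr4a1 came next with a gap of 0.95, followed by Junb (0.60) and Ier2 (0.46). The granulocyte and monocyte marker sum ran the other way, at 17759 and 11240 FPKM in the HSC libraries and 9226 and 7762 in the CLP libraries, and its part in these values was not tested.

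**Figure D3:**
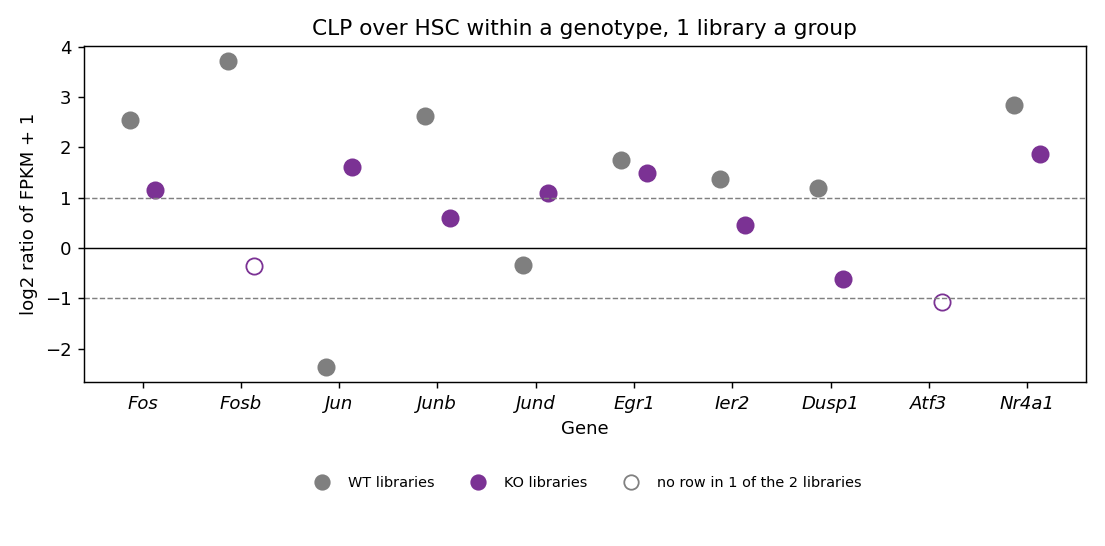
Log2 ratio of FPKM + 1 of CLP over HSC (vertical axis) for each immediate early gene, within the WT libraries (grey) and within the KO libraries (purple), 1 library a group; dashed lines mark 2-fold and open points have no row in 1 of the libraries. Fos, Egr1 and Nr4a1 lie above the upper line in both genotypes, whereas Jun lies at -2.36 in WT and 1.61 in KO.

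Between genotypes the members showed no common direction in HSC. KO-HSC was at least 2-fold above WT-HSC for 2 of 10 (Dusp1 and Atf3, the latter without a row in WT-HSC), against 19.3% of all genes, and at least 2-fold below it for 2 of 10 (Jun and Jund), against 18.0%. The median log2 ratio was 0.43 over the members and 0.05 over all genes. In CLP, KO was at least 2-fold above WT for 1 of 9 (Jun), against 26.6% of all genes, and at least 2-fold below for 3 of 9 (Fosb, Junb and Nr4a1), against 23.4%. The call for Fosb rests on its missing row in KO-CLP. The median log2 ratio was -0.61 against 0.05. The comparisons in HSC and between WT libraries share WT-HSC, and those in CLP and between KO libraries share KO-CLP. Those in CLP and between WT libraries share WT-CLP, and those in HSC and between KO libraries share KO-HSC. WT-CLP was the highest library for Fos, Fosb, Junb, Ier2 and Nr4a1. For these genes the differences of WT-CLP from KO-CLP and from WT-HSC are thus not separate results. The KO-CLP library had the highest sums of the erythroid and B cell markers given above, and the part of these markers in the CLP values was not tested.

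**Figure D4:**
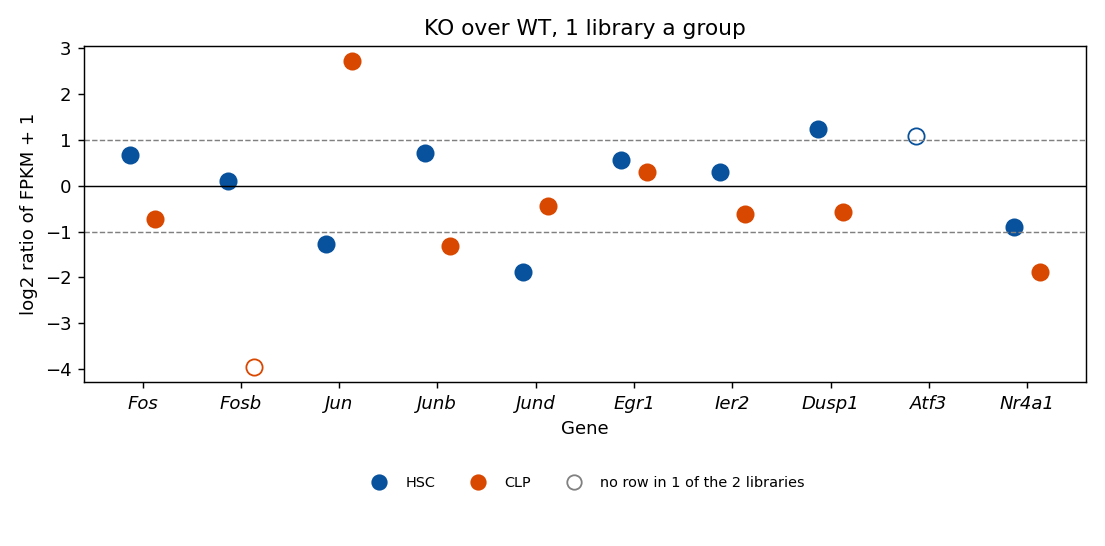
Log2 ratio of FPKM + 1 of KO over WT (vertical axis) for each immediate early gene, in HSC (blue) and CLP (orange), 1 library a group; dashed lines mark 2-fold and open points have no row in 1 of the libraries. Jun lies past 2-fold in both populations with opposite signs, at -1.27 in HSC and 2.71 in CLP.

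Fos and Junb were the members with the most similar pattern over the 4 libraries. After centring each gene on its own mean log2(FPKM + 1), the Euclidean distance between them was 0.483, the smallest among pairs of members, followed by 0.749 between Fos and Egr1. Among 5755 other genes with a mean of at least 10 FPKM, those nearest to Fos were Patl1, an mRNA decapping factor (0.118), Haao, an enzyme of tryptophan breakdown (0.144), and Chaf1a, a subunit of chromatin assembly factor 1 (0.161). Those nearest to Egr1 were Upf3b of nonsense-mediated decay (0.136), Tspyl1 (0.166) and Rrn3, an initiation factor of RNA polymerase I (0.180).

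A wider list held 50 other early response genes. Of 40 compared between the WT libraries, 17 were at least 2-fold higher and 4 lower in CLP, against 21.8% and 24.7% of all genes, with a median log2 ratio of 0.87 against -0.08. Of 42 compared between the KO libraries, 16 were higher and 5 lower in CLP, against 22.3% and 23.4% of all genes, with a median of 0.36 against -0.08. Klf2, a factor that keeps lymphocytes quiescent, was 87.1 FPKM in WT-CLP and 36.6 in KO-CLP, against 0.907 in KO-HSC and no row in WT-HSC. Hes1, a Notch target, was 24.0 FPKM in WT-CLP, 0.268 in KO-CLP and without a row in both HSC libraries. Dusp6, a phosphatase for ERK, had 5.02 FPKM in WT-HSC, 2.08 in KO-HSC, 22.8 in WT-CLP and 42.3 in KO-CLP. Among the genes lower in CLP, Gadd45a, a DNA damage response gene, had 27.4 FPKM in WT-HSC, 46.5 in KO-HSC, 0.414 in WT-CLP and 19.5 in KO-CLP. Cebpd, a myeloid factor, had 15.8 FPKM in WT-HSC and no row in WT-CLP, where a row with another symbol (2310008H04Rik) covered its locus. Between the KO libraries the largest falls in CLP were those of Nr4a2 and Myc, described next.

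Between genotypes, 5 of 41 genes of that list were at least 2-fold higher and 9 lower in KO-HSC than in WT-HSC, against 19.3% and 18.0% of all genes, with a median log2 ratio of -0.41 against 0.05. In CLP 7 of 41 were higher and 16 lower in KO, against 26.6% and 23.4% of all genes, with a median of -0.28 against 0.05. Nr4a2, the closest relative of Nr4a1, had 16.1 FPKM in KO-HSC and no row in the other libraries. Myc, a growth regulator, had 41.0 FPKM in WT-HSC, 129 in KO-HSC, 81.6 in WT-CLP and 21.3 in KO-CLP, with log2 ratios of KO over WT of 1.63 in HSC and -1.89 in CLP. Ier5 went from 11.8 FPKM in WT-HSC to 2.96 in KO-HSC (log2 ratio -1.69) and Cited2, a coregulator needed by stem cells, from 60.8 to 21.4 (-1.46). In CLP, Sgk1, a kinase downstream of PI3K, was 31.4 FPKM in WT and 0.153 in KO, the latter near the value of 1 fragment. Gadd45a gave a log2 ratio of 3.86, and Bhlhe40 had no row in WT-CLP and 11.1 FPKM in KO-CLP.

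Of 24 genes for SRF, its TCF and MKL cofactors, CREB and the kinases that act on them, 4 were at least 2-fold higher and 7 lower in KO-HSC than in WT-HSC, against 19.3% and 18.0% of all genes. In CLP 5 were higher and 10 lower in KO, against 26.6% and 23.4%. The median log2 ratios were 0.00 and -0.52, against 0.05 over all genes in each. Between the WT libraries 4 of 24 were higher and 6 lower in CLP, against 21.8% and 24.7% of all genes. Between the KO libraries 5 of 22 were higher and 5 lower, against 22.3% and 23.4%, and the median log2 ratios were -0.03 in WT and -0.42 in KO against -0.08. Srf, the factor that drives Fos, Egr1 and Junb through the CArG box, had 21.3 FPKM in WT-HSC, 3.15 in KO-HSC, 11.4 in WT-CLP and 1.13 in KO-CLP. Both KO libraries were below both WT libraries, with log2 ratios of -2.42 in HSC and -2.54 in CLP. Ep300, a histone acetyltransferase, went from 0.269 FPKM in WT-HSC to 10.8 in KO-HSC. Mapk9, a JUN kinase, went from 4.12 FPKM in WT-CLP to 15.3 in KO-CLP, and Elk3, a TCF cofactor, from 29.0 to 4.79. Map2k1, a kinase above ERK, had 16.6 FPKM in KO-CLP and no row in WT-CLP, and Mkl1 had 16.8 FPKM in WT-HSC and no row in KO-HSC. In both cases a row with another symbol covered the locus in the library without one (Uchl4 and Sgsm3), and its part in these differences was not tested.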

How the data were processed

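The members and all gene lists were chosen with earlier results of these data known. RNA of sorted cells was sequenced in 4 libraries, 1 a group. The authors aligned reads to mm9 with the Tuxedo suite (TopHat 1.4.0 in the submitters' processing notes) and deposited FPKM values, 1 a gene and library; further settings are not given in the sources used here. Scaling by length and library was thus already in the values. Here, rows that share a symbol were added up, a missing row counted as 0, and rows that join several genes were left out with the genes in them (478 names in all, no member among them). Log2 ratios used a pseudocount of 1, and all genes with a row in at least 1 of the libraries compared formed the background. No test was made, since each group is 1 library; an additive model of genotype and population, which would leave 1 degree of freedom, was not run. Fragments were estimated from steps (1, 2 or 3 fragments, within 10%) in FPKM values under 0.3 of genes with 1 transcript of at least 1500 bp; between 70.6% and 80.6% of these values lay on a step. They cover counting error only, and PCR copies are not separate molecules. Genes named outside the members followed a rule: the 2 largest rises and falls past 2-fold a list in each knockout comparison, at an FPKM of at least 10 in 1 library, Srf, and the 3 genes nearest to Fos and Egr1. The largest rises and falls of the early response list in the population comparisons (Klf2, Hes1, Dusp6, Gadd45a, Cebpd, Nr4a2 and Myc) were chosen after their values were seen. So were Hspa1a and Hspa1b. Coordinates are from GENCODE vM1 on mm9, counted from 1, and all 36 member loci in the tables overlapped them. Scripts were tested on simulated data. Alternatives were the pseudocount, a filter on low values, 2 scalings, the highest row a symbol, a 4-fold limit and keeping genes of joint rows. Scripts ran in Python 3.11.15 with pandas 2.3.3 and numpy 2.4.6, and matplotlib 3.10.9 drew the figures.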

Additional observations from a re-analysis of the deposited data

Results flagged for a closer look

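Jun moved in opposite directions in the populations, past 2-fold in each: the log2 ratio of KO over WT was -1.27 in HSC and 2.71 in CLP. With 1 library a group, no test of this difference could be made.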

How the results depend on the processing

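With 1 library a group no replicate could be left out. No paired analysis was possible because each group has 1 library without a replicate number. Of 56 counts of members recomputed under the alternatives, 49 stayed within 1.5 times of the value reported. With a pseudocount of 0.1, 2 members instead of 1 were at least 2-fold lower in CLP among the KO libraries, Fosb being added. With an absolute log2 ratio of at least 2, 0 of 10 members were higher and 0 lower in KO-HSC than in WT-HSC, where 6.07% and 6.37% of all genes were. At that limit 1 of 9 was higher (Jun) and 1 lower (Fosb, without a row) in KO-CLP than in WT-CLP, against 13.5% and 11.3%. In WT-CLP over WT-HSC 4 of 9 were higher and 1 lower, against 9.22% and 11.2%. In KO-CLP over KO-HSC 0 of 10 were higher and 0 lower, against 9.72% and 9.41%. Of 226 log2 ratios of single members, 222 stayed within their counting interval and 0 changed sign among those past 2-fold. The low-value filter, the highest row a symbol and the joint rows leave the ratio of each member kept unchanged. Their entries in both tallies were thus fixed in advance. The interval has no limits where a library had no row, so Atf3, and Fosb against KO-CLP, could not leave it. It is wide for Fosb in the other comparisons. The ratios of both genes depend on the pseudocount: with 0.1 Fosb went from 3.71 to 5.69 in WT-CLP over WT-HSC and from -3.95 to -7.19 in KO-CLP over WT-CLP. Atf3 went from 1.07 to 3.59 in KO-HSC over WT-HSC. Nr4a1 in HSC passed 2-fold with a pseudocount of 0.1 (-1.04) and with libraries scaled to an equal FPKM sum (-1.09). That scaling moved the median log2 ratio of genes with a row in both libraries by over 0.1 in 2 comparisons, to -0.14 for KO over WT in HSC and to 0.20 for CLP over HSC in the KO libraries. About 2 to 8 fragments stood behind Fosb in the HSC libraries and Atf3 in KO-HSC, and each result rests on 1 library a group.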

Other observations

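Of 13 other AP-1 and small MAF partners, 1 was at least 2-fold higher and 3 lower of 11 compared in KO-HSC against WT-HSC, and 1 higher and 2 lower of 8 in KO-CLP against WT-CLP, with median log2 ratios of 0.23 and -0.19 against 0.05 over all genes in each. Of all genes, 19.3% were higher and 18.0% lower in the first comparison and 26.6% and 23.4% in the second. Between the populations, 1 of 9 was higher and 3 lower in CLP among the WT libraries, and 1 of 10 higher and 0 lower among the KO libraries, with medians of -0.17 and -0.28 against -0.08. Of all genes, 21.8% were higher and 24.7% lower in CLP among the WT libraries, and 22.3% and 23.4% among the KO libraries. Fosl2, a FOS relative, had 16.8 FPKM in WT-CLP, 4.91 in KO-CLP, 0.26 in KO-HSC and no row in WT-HSC, so that its levels ranked by population as those of Fos did. Batf, an AP-1 partner of lymphoid and myeloid cells, had 44.4 FPKM in WT-HSC and 13.0 to 17.6 in the other 3 libraries. Maff had 23.5 FPKM in WT-HSC, 9.35 in KO-HSC, 5.59 in KO-CLP and no row in WT-CLP. Mafk was 10.4 FPKM in WT-CLP and 3.47 in KO-CLP.

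A list of 12 heat shock genes held those known to be induced beside immediate early genes when tissue is dissociated. Of 10 compared, 1 was at least 2-fold higher and 1 lower in WT-CLP than in WT-HSC, and 2 higher and 1 lower in KO-CLP than in KO-HSC, with median log2 ratios of 0.19 and -0.07. In KO against WT, 1 was higher and 2 lower in HSC, and 1 higher and 1 lower in CLP, with medians of 0.17 and -0.20. The shares of all genes past 2-fold are those given for the AP-1 partners. Over all genes the medians were -0.08 for CLP over HSC and 0.05 for KO over WT. Hspa1a, the inducible HSP70 gene, had 2.56 FPKM in WT-CLP, 0.0472 in KO-HSC and no row in the other libraries. Hspa1b, its near copy, had 0.499 FPKM in WT-CLP, 0.0469 in KO-HSC and no row in the other libraries. Both KO-HSC values lie below that of 1 fragment in 2 kb there (0.131 FPKM). Dnajb1, its cochaperone, went from 84.3 FPKM in WT-HSC to 12.7 in KO-HSC. Hspd1 had 74.8 FPKM in WT-HSC and no row in KO-HSC.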
